A study of Saccharomyces cerevisiae with 24 samples.

Results

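The starting pools of 2 diploid Saccharomyces cerevisiae strains, the North American oak isolate YPS128 and the vineyard strain BC187, were compared before any salt was applied. Both pools carried the MoBY 2.0 collection, in which each high-copy 2-micron plasmid holds 1 gene of the laboratory strain S288c with its native flanking sequence and a DNA barcode that is counted by sequencing. The comparison used 6 of the 24 samples of the series, namely generation 0 replicates 1 to 3 of YPS128 and of BC187. The remaining samples were the laboratory strain BY4743 and the West African strain NCYC3290 at generation 0, and all 4 strains after 10 generations in 0.7 M NaCl. All cells grew in rich medium with G418, the drug that keeps the plasmid in the cell. Each strain's transformants were pooled and frozen, and cultures were started from the thawed stock. The sources used here name no further pools, so strain and transformation pool cannot be told apart, and the p-values below measure the spread among these libraries, which may be cultures of 1 pool per strain.

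A 2-micron plasmid is an autonomously replicating circle that yeast keeps in several copies, so a cloned gene is expressed above its usual level. Cells in which that surplus is costly grow more slowly or keep fewer copies, and in a pool either outcome lowers the plasmid's share of the reads. Fewer cells with a plasmid and fewer copies per cell cannot be told apart from barcode reads.

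The 6 libraries held between 8486592 and 21314714 reads, with a median of 1605 to 3988 reads per row of the table. Levels are given as normalized reads, meaning reads per 1000000 reads of that library, counted over plasmids that never exceeded 50000 reads in any of the 24 samples. No plasmid passed that mark in these 6 libraries. On 4054 plasmids with more than 50 reads in every library, log2 levels of 2 libraries correlated at 0.957 to 0.992 within a strain (Pearson's r) and at 0.838 to 0.869 between strains. YPS128 replicate 1 stood furthest from its group, since its levels departed from the strain mean with an SD of 0.240 log2 units against 0.0740 to 0.155 in the other libraries.

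The same plasmids were present in both strains. Of 4871 rows in the table, 602 had no read in any of the 6 libraries and 622 to 637 were at 0 in a given library. Between 12.8% and 13.1% of rows were at 0 in each library, with means of 12.9% in both strains (two-sided exact permutation test over 20 splits, p = 1, where the smallest possible p is 0.1). Taking at most 3 reads in every library as not detectable at this depth, 2 plasmids were at that floor in YPS128 only and 0 in BC187 only. They carried TRS130, a subunit of a complex that tethers vesicles at the Golgi, and DXO1, a decapping exonuclease. TRS130 had 7, 9 and 7 reads in BC187 and 0, 1 and 3 in YPS128. DXO1 had 4, 5 and 6 reads in BC187 and 0, 2 and 2 in YPS128. Both are so close to the floor that no fold is given.

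The 10 most abundant plasmids took 1.49%, 1.30% and 1.30% of the reads in YPS128 and 1.20%, 1.16% and 1.11% in BC187. All YPS128 libraries were above all BC187 libraries, at the smallest p that 3 against 3 allows (exact permutation test, p = 0.1). No plasmid dominated either pool, the highest share of a single plasmid being 0.205% of a library. The SD over plasmids of log2(normalized reads + 1) was 1.55 ± 0.00518 in YPS128 and 1.55 ± 0.0586 in BC187 (SD, n = 3, exact permutation test, p = 1).

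Levels differed widely within this common set. Of 4185 rows with enough reads to be tested, 1143 were lower in YPS128 and 1067 were higher at an adjusted p under 0.05, that is 27.3% and 25.5% of those tested. More than 2-fold differences were called for 251 plasmids lower in YPS128 and 225 higher, together 11.4% of those tested. Tested directly against a 2-fold difference, 98 were lower and 77 higher. When the spread was estimated from all 24 samples, the generation 10 cultures included, only 3 plasmids were lower and 4 higher. Differences of more than 4-fold were called for 26 lower and 32 higher plasmids. The median log2 difference (YPS128 minus BC187) over all tested plasmids was -0.01, the interquartile range ran from -0.37 to 0.36, and the SD was 0.68. The 3 values of one strain lay entirely above those of the other for 63.3% of tested plasmids and for all but 21 of the 2210 called. Without YPS128 replicate 1, 1438 plasmids were lower and 1344 higher.

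**Figure D1:**
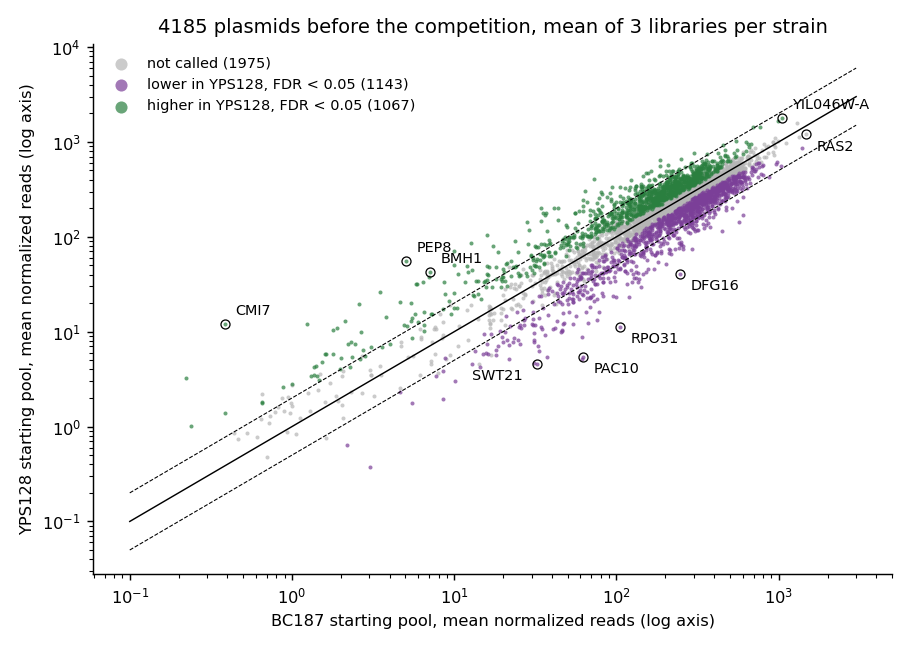
Mean normalized reads of each tested plasmid in the BC187 (x axis) and YPS128 (y axis) starting pools, both on log axes, with the line of equality (solid) and 2-fold lines (dashed). Each point is 1 of 4185 plasmids, and the 1143 lower and 1067 higher in YPS128 spread further from the line where levels are low.

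Among the largest deficits in the oak strain was that of PAC10, a subunit of the prefoldin chaperone that hands nascent tubulin and actin to the folding machinery (chromosome VII, 639772 to 640371, RefSeq R64, as all positions here). Its plasmid had 53.8, 59.1 and 73.3 normalized reads in BC187 and 8.09, 3.90 and 4.32 in YPS128 (log2 difference -3.55 ± 0.30 SE, adjusted p = 8.8e-05). Every BC187 library was above every YPS128 library, which the choice of these plasmids required.

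RPO31, the largest subunit of RNA polymerase III, which transcribes tRNA genes (chromosome XV, 539763 to 544145), followed at 112, 109 and 94.1 normalized reads in BC187 and 12.4, 11.6 and 10.0 in YPS128. Its log2 difference was -3.22 ± 0.15 (adjusted p = 2.1e-05). The plasmid of BYE1, a nuclear protein that binds RNA polymerase II, stood at 60.7, 62.3 and 61.1 in BC187 and at 7.73, 10.9 and 7.91 in YPS128 (-2.79 ± 0.18). Replicates of both were tight, and the gap between strains exceeded their spread.

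ATG32, the mitochondrial receptor for mitophagy (chromosome IX, 74184 to 75773), was scarcer in YPS128 and BC187 than in the other strains, and scarcest in YPS128. It had 39.8, 34.9 and 36.9 normalized reads in BC187 and 5.11, 5.17 and 5.80 in YPS128 (-2.79 ± 0.17, adjusted p = 3.4e-05), beside means of 388 in BY4743 and 421 in NCYC3290. RIE1, an RNA-binding protein found in stress granules, was likewise lowest in YPS128 and next lowest in BC187, at 31.1 in BC187, 4.64 in YPS128, 198 in BY4743 and 186 in NCYC3290 (means of 3). DFG16, which belongs to the pathway that senses alkaline pH, was the most abundant of these deficits, at 259.8, 245 and 234 in BC187 and 38.2, 44.3 and 39.5 in YPS128 (-2.60 ± 0.11, adjusted p = 1.5e-05). MEX67, the receptor that carries mRNA out of the nucleus, differed by -2.46 ± 0.21.

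For SWT21 and LSB3 the order among strains was different. SWT21, a protein linked to pre-mRNA splicing, had 32.8, 34.9 and 29.5 normalized reads in BC187 and 5.83, 4.07 and 3.76 in YPS128 (-2.85 ± 0.22), and YPS128 was close to the 5.87 of BY4743 and the 5.37 of NCYC3290. The plasmid of LSB3, an actin patch protein, had means of 75.5 in BC187, 13.3 in YPS128, 24.1 in BY4743 and 25.8 in NCYC3290. Here BC187 held more than any other strain.

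The largest excess in oak among plasmids with more than 3 reads in every library was for PEP8. PEP8 (also called VPS26) encodes a retromer subunit, part of the coat that returns sorting receptors from endosomes to the Golgi, and lies on chromosome X at 335898 to 337037. Its plasmid had 52.5, 57.9 and 57.1 normalized reads in YPS128 and 4.90, 5.20 and 5.07 in BC187 (log2 difference 3.46 ± 0.15, adjusted p = 1.5e-05). All 6 values lay close to their strain's mean, and the levels in BY4743 (26.0) and NCYC3290 (23.2) fell between.

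Among the 10 largest excesses, 2 were for subunits of the RSC complex, which moves nucleosomes at promoters. The complex was not among the gene lists, and calls among its other subunits were not counted. RSC9 had 18.7, 20.5 and 20.1 normalized reads in YPS128 and 1.63, 2.98 and 3.12 in BC187 (2.90 ± 0.27, adjusted p = 0.00012). RSC1 had 77.4, 117 and 117 in YPS128 and 9.71, 21.5 and 16.8 in BC187 (2.69 ± 0.30, adjusted p = 0.00028). For RSC1 the YPS128 mean of 104 was near those of BY4743 (107) and NCYC3290 (105), and BC187 stood below all of them.

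BMH1, a 14-3-3 protein that binds phosphorylated partners in many signaling pathways, had 35.8, 48.1 and 44.5 normalized reads in YPS128 and 5.19, 8.08 and 7.89 in BC187 (2.59 ± 0.23, adjusted p = 9.7e-05). Both were above BY4743 (1.97 ± 0.580, SD, n = 3) and NCYC3290 (1.87 ± 1.28). NDC1, a membrane protein that anchors nuclear pores and spindle pole bodies, was scarce in YPS128 and more so in BC187, at 15.9, 11.2 and 11.7 in YPS128 and 1.73, 2.08 and 2.53 in BC187, against 96.7 in BY4743 and 78.9 in NCYC3290. LAM1, which transfers sterols at membrane contact sites, differed by 2.82 ± 0.23. The remaining plasmids among the 10 largest excesses carried CCR4 (1 of its 2 rows), the sporulation gene SPR2, YJL218W and YKL091C, with log2 differences of 3.25, 2.89, 2.74 and 2.56.

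**Figure D2:**
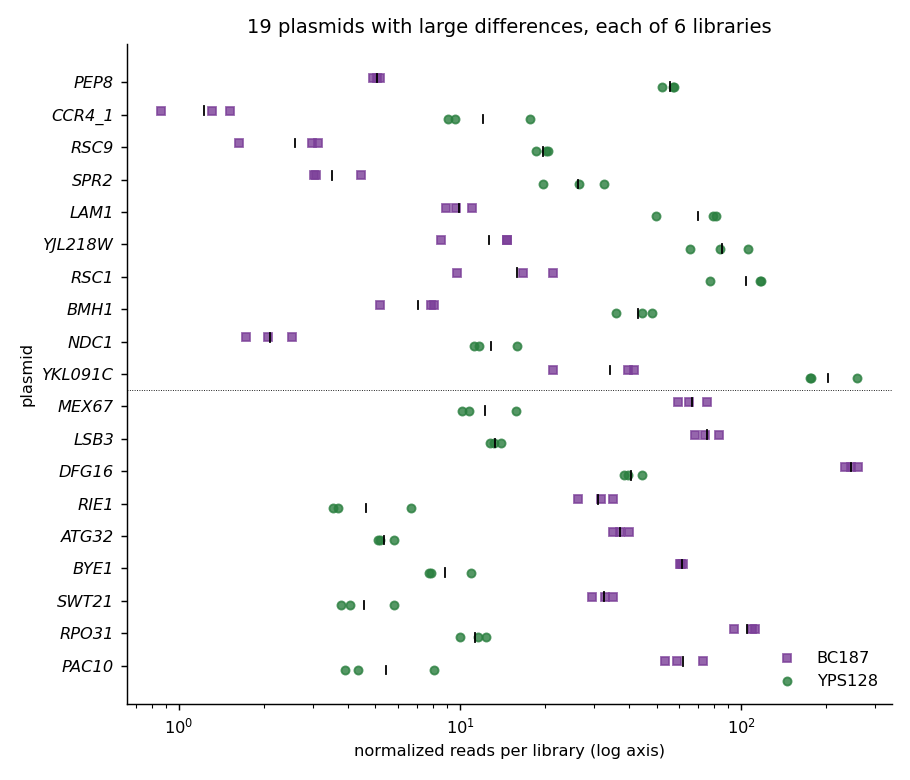
Normalized reads (log axis) of the 10 plasmids with the largest excess in YPS128 (top) and 9 of the 10 with the largest deficit (bottom), with each of 3 BC187 libraries (squares), 3 YPS128 libraries (circles) and the strain means (black ticks). The libraries of the 2 strains do not overlap for any of the 19, which the choice of these plasmids required.

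A further 7 called plasmids had at most 3 reads in some library. CMI7, an open reading frame of 210 bases, showed the largest difference of all, with 7, 2 and 8 reads in BC187 and 118, 164 and 142 in YPS128. In normalized reads this was 0.673, 0.0945 and 0.390 against 14.0, 13.9 and 8.08 (5.10 ± 0.53, adjusted p = 0.00021). MET31, a zinc finger activator of sulfur amino acid genes, had 1, 7 and 5 reads in BC187 and 11, 33 and 98 in YPS128 (3.73 ± 0.66). AIM17 differed by -3.01 and TLD1 by -1.65, while UBX2, CRN1 and YIL134C-A differed by 1.84, 1.88 and 1.34. These rest on few reads, and the calls of CRN1 and YIL134C-A were lost under most omissions of a single library.

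The plasmid with the largest difference and the one with the highest mean level in YPS128 both carry short open reading frames, which are shown whole to identify these inserts. CMI7 (chromosome IX, 350301 to 350510) and YIL046W-A (chromosome IX, 268309 to 268473) are on the plus strand and are printed 5′ to 3′ from the RefSeq R64 genome with the start and stop codons in capitals. The barcodes that were read are a separate sequence and are not shown.
CMI7: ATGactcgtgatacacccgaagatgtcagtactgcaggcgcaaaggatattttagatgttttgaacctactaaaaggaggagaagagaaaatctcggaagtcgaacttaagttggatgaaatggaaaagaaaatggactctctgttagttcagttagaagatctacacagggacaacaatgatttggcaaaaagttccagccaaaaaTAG
YIL046W-A: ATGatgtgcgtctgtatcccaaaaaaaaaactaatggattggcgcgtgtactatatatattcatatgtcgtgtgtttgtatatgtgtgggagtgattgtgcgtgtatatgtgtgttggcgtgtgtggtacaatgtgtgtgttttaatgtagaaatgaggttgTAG

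The most abundant plasmids were partly shared. In BC187 they carried RAS2, SNP1, FYV4, YDL241W and PIN3, and in YPS128 YIL046W-A, RPS21A, YDL241W, WHI4 and GPP2. RAS2, a GTPase that activates adenylate cyclase, had 1472, 1494 and 1429 normalized reads in BC187 and 930.2, 1301 and 1381 in YPS128, with no call (-0.28 ± 0.15, adjusted p = 0.15). YIL046W-A had 1042, 1037 and 1076 in BC187 and 2074, 1546 and 1707 in YPS128 (0.76 ± 0.12, adjusted p = 0.0016). In BY4743 and NCYC3290 it was at only 36.9 and 37.7. RPS21A, a small ribosomal subunit protein, resembled it, at 992 in BC187 and 1662 in YPS128 against 109.9 in BY4743 and 107 in NCYC3290 (means of 3). SNP1, the U1 snRNP protein that acts in splicing, was lower in YPS128 (872 against 1383, -0.67 ± 0.10, adjusted p = 0.00081).

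The more than 2-fold differences were set against the generation 0 pools of BY4743 and NCYC3290. Those pools were much more alike, with an SD of log2 differences (NCYC3290 minus BY4743) of 0.21 against 0.68 for YPS128 minus BC187. Why they were so alike was not tested. Of the 251 plasmids lower in YPS128, YPS128 lay further than BC187 from the mean log2 level of the other strains for 188. The median gap to that level was -1.54 log2 units in YPS128 and -0.15 in BC187, and both strains lay below it for 139, above it for 20 and on either side of it for 92. Of the 225 plasmids higher in YPS128, BC187 was the further for 137, with median gaps of -0.94 in BC187 and 0.46 in YPS128, and both strains lay below for 81, above for 40 and on either side for 104. Over all 4182 tested plasmids with reads in each of those libraries, YPS128 was the further for 2180. These are descriptions, since the plasmids were chosen on values of the same YPS128 and BC187 libraries.

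Differences were larger where plasmids were rare. In the quartile of tested plasmids with the lowest mean level (median 57.2 normalized reads), the SD of log2 differences was 1.02 and 28.7% were called at more than 2-fold. From the second to the highest quartile these shares were 9.18%, 5.07% and 2.58%, and in the highest quartile (median 410.4 normalized reads) the SD was 0.43. The median SE of a log2 difference was 0.17 in the lowest quartile and 0.11 in the highest. Quartiles were cut on the mean level of the same 6 libraries, and why rare plasmids differed more was not tested. By gene length, more than 2-fold calls rose from 8.90% in the shortest quartile (median 504 bases) to 14.6% in the longest (median 2313 bases), and median levels fell from 263 to 186 normalized reads.

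Genes present as 2 rows gave a comparison of plasmids that carry the same gene. The table held 54 such genes, of which 40 had both rows tested. The log2 differences of row 1 and row 2 correlated at -0.09 (Pearson's r) and 0.04 (Spearman's rho) over these 40 genes, given as a description. These values depend on which row is numbered 1, and with each gene entered in both orders r was -0.12. The median distance between the 2 rows of a gene was 0.60 log2 units, beside an SD of 0.71 over all 80 rows. Both rows were called for 14 genes, in the same direction for 6 and in opposite directions for 8. A single row was called for 19 genes and none for 7. Of these 80 rows 47 were called, beside 52.8% of all tested rows. Limited to 37 genes with more than 50 reads in every library for both rows, r was -0.08 (-0.17 in both orders). The opposite calls were again 8. Whether the 2 rows are separately cloned plasmids is not given in the sources used here.

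CCR4, the catalytic deadenylase that shortens mRNA tails (chromosome I, 110846 to 113359), had the greatest distance. Its row 1 had 9.04, 17.7 and 9.56 normalized reads in YPS128 and 0.866, 1.51 and 1.32 in BC187 (3.25 ± 0.37, adjusted p = 0.0003), whereas row 2 had 116, 110.4 and 117 in YPS128 and 142, 139 and 128 in BC187 (-0.25 ± 0.10, adjusted p = 0.059). The scarce row was 9.50-fold higher in YPS128, and the abundant one did not pass the test. ARO8, an aromatic aminotransferase, had calls in opposite directions, at -0.42 ± 0.15 (adjusted p = 0.046) for row 1 and 2.29 ± 0.20 (adjusted p = 0.00011) for row 2. The row 1 call of ARO8 was lost when BC187 replicate 1 or 2 or YPS128 replicate 1 or 2 was left out, with adjusted p of 0.064 to 0.13. IRC5, a putative ATP-dependent helicase, had 393, 296 and 320.4 in YPS128 against 87.2, 91.9 and 104 in BC187 for row 1 (1.83 ± 0.13), and row 2 was not called (-0.61 ± 0.28, adjusted p = 0.099).

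Rows of ACB1, which binds acyl-CoA esters, were called in opposite directions, with means of 557 in BC187 and 301 in YPS128 for row 1 (-0.89 ± 0.09) and 165 and 300.0 for row 2 (0.86 ± 0.19). The closest rows were those of BIM1, a microtubule plus-end protein (0.24 and 0.22, neither called), SET6 (0.31 and 0.25, both called, with the call of row 1 lost under 4 and that of row 2 under 5 of 6 omissions of a library) and FLO8, a regulator of filamentous growth (0.83 and 0.91). For FLO8, row 1 rested on 12 to 24 reads a library and was not called. Both rows were higher in YPS128 for DID4 (0.95 and 1.03), an ESCRT-III subunit of endosomal sorting, and TAD3 (0.74 and 0.92), a subunit of the tRNA adenosine deaminase. How reads were assigned to the 2 rows of a gene is not given in the sources used here.

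**Figure D3:**
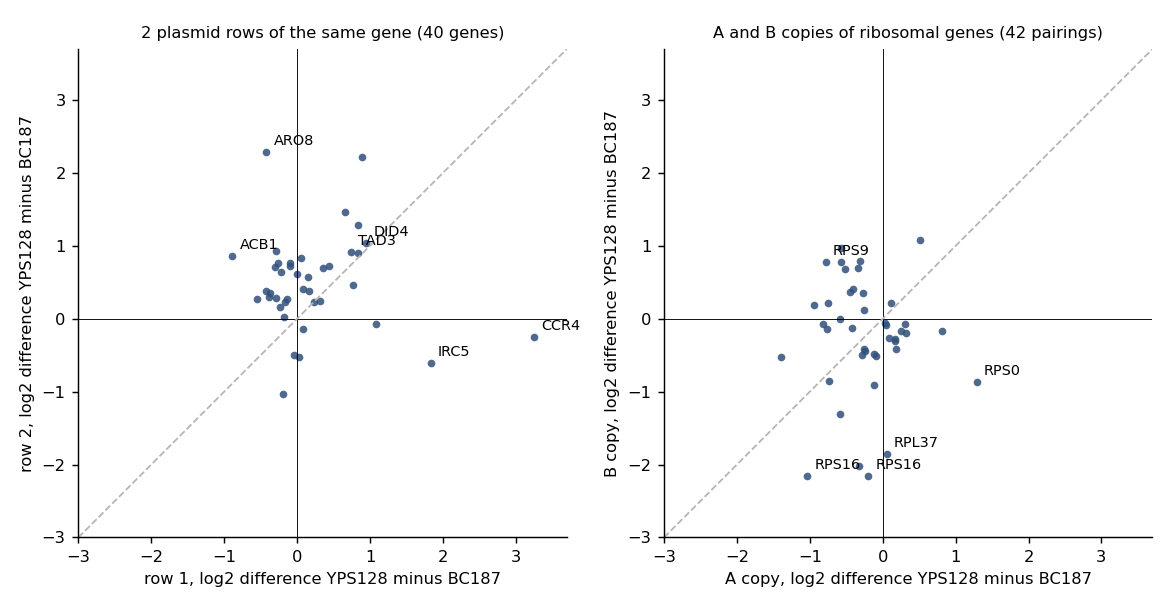
Log2 difference (YPS128 minus BC187) of row 1 against row 2 for the 40 genes with 2 tested rows (left), and of the A copy against the B copy for 42 pairings of ribosomal protein genes (right), with the line of equality dashed. Points scatter around 0 with no alignment to the dashed line, with r of -0.09 on the left and -0.02 on the right.

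Yeast kept pairs of most ribosomal protein genes after its ancestral genome duplication, and these A and B copies offered a second view. In 42 pairings of tested plasmids (41 gene pairs, since RPS16A has 2 rows), both were called in the same direction for 6 and in opposite directions for 8, 1 was called for 18 and none for 10. These counts stand beside 52.8% called in either direction over all tested plasmids. The log2 differences of the copies correlated at -0.02 (Pearson's r) and -0.15 (Spearman's rho), again as a description. In 17 pairings the encoded proteins are identical in the RefSeq annotation, and their median distance was 0.62 log2 units, as it was over all 42.

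RPS0A and RPS0B, whose proteins are 95.7% identical, lay furthest apart. RPS0A had 62.2, 46.3 and 45.7 normalized reads in YPS128 and 17.5, 23.7 and 21.5 in BC187 (1.29 ± 0.19, adjusted p = 0.00094). RPS0B had 66.6, 60.2 and 58.4 in YPS128 and 95.9, 104 and 137 in BC187 (-0.87 ± 0.16, adjusted p = 0.0025). RPL37B was lower in YPS128 (29.4, 32.7 and 34.0, against 117, 113 and 119 in BC187, -1.86 ± 0.12), while RPL37A was not called (0.05 ± 0.08, adjusted p = 0.59).

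RPS16A and RPS16B encode the same 143-residue protein of the small subunit from coding sequences that differ at 28 of 432 bases. RPS16B had 9.16, 12.4 and 9.22 normalized reads in YPS128 and 48.7, 41.5 and 47.5 in BC187 (-2.16 ± 0.18, adjusted p = 9e-05). For RPS16A, row 1 was at 359, 429.6 and 443 in YPS128 and 485, 454 and 473 in BC187 (-0.20 ± 0.10, adjusted p = 0.13), and row 2 differed by -1.04 ± 0.16 (adjusted p = 0.0013). To show how alike the coding sequences begin, the first 90 coding bases of both are given 5′ to 3′ from RefSeq R64, with the 6 positions that differ in capitals. These are joined coding exons, whereas the genes span 976 (RPS16A) and 864 (RPS16B) bases. The noncoding parts of the genes and their flanking sequences, which the plasmids also carry, were not compared.
RPS16A: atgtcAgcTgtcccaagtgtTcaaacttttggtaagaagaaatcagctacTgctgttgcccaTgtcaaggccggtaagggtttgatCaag
RPS16B: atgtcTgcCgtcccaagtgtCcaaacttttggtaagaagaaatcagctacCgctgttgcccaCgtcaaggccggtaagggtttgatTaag

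Plasmids with ribosomal protein genes were more often lower than higher in oak. Of 66 tested plasmids with proteins of the large cytosolic ribosomal subunit, 22 were lower (33.3%) and 11 higher (16.7%), with a median log2 difference of -0.14. For the small subunit the counts were 21 lower (41.2%) and 10 higher (19.6%) of 51, with a median of -0.25. The mitochondrial ribosome had 21 lower (37.5%) and 9 higher (16.1%) of 56 and a median of -0.14. These stand beside 27.3% lower, 25.5% higher and a median of -0.01 over all tested plasmids. Cytosolic aminoacyl-tRNA synthetases, which charge tRNAs, had 4 lower (28.6%) and 1 higher (7.14%) of 14. Their lower share was near that over all tested plasmids.

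RPL16B had the largest deficit of the large subunit, at 31.8, 35.4 and 32.7 normalized reads in YPS128 against 154, 132 and 120.5 in BC187 (-2.02 ± 0.14). RPS23B and RPS25A of the small subunit differed by -1.31 and -1.29. In the other direction stood RPL14B of the large subunit (1.08 ± 0.29). MRPL23 of the mitochondrial ribosome was lower in YPS128 (67.5 against 210.6, means of 3, -1.65 ± 0.19), and MRPL27 was higher (345 against 132, 1.39 ± 0.11). TYS1 (tyrosyl-tRNA synthetase) differed by -0.97 and KRS1 (lysyl-tRNA synthetase) by 0.56.

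RNA polymerase subunits ran the other way by count, with 11 higher (44%) and 7 lower (28%) of 25. The shares over all tested plasmids were 25.5% and 27.3%. The 7 deficits included RPO31 as above, RPB2 of polymerase II (20.2, 20.3 and 20.8 normalized reads in YPS128 and 63.0, 53.8 and 45.3 in BC187, -1.40 ± 0.16), and RPA190 of polymerase I (-1.07 ± 0.12). RPC25, a polymerase III subunit, was the highest of the excesses, at 1.16 ± 0.21.

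Protein sorting to the vacuole had the most one-sided counts among the lists with at least 20 tested members. Of 30 tested VPS plasmids, 15 were lower in YPS128 (50%) and 3 higher (10%), with a median of -0.24. This compares with 27.3% lower and 25.5% higher over all tested plasmids. VPS74, a Golgi protein that retains glycosyltransferases, had 42.5, 46.0 and 48.9 normalized reads in YPS128 and 171, 170.1 and 172 in BC187 (-1.90 ± 0.10, adjusted p = 2.9e-05). VPS1, a dynamin-like GTPase, was at 31.4, 22.4 and 19.9 against 76.2, 75.3 and 63.9 (-1.56 ± 0.20). Members of the ESCRT machinery that sorts cargo at endosomes, VPS25, VPS27 and VPS36, differed by -1.24, -1.12 and -1.10. DID4, an ESCRT-III subunit outside this list by its name, went the other way, with both rows called higher (0.95 and 1.03). VPS73 was the highest of the excesses within the list (0.86 ± 0.11). The retromer subunit PEP8, outside this list by its name, had the largest excess among plasmids with more than 3 reads in every library. SEC genes of the secretory pathway were evenly split, with 8 lower and 9 higher of 29, SEC15 of the exocyst at -1.69 and SEC31 of the COPII coat at 1.21. The vacuolar proton ATPase had 3 lower and 2 higher of 13.

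Cell cycle regulators included 6 lower (50%) and 2 higher (16.7%) of 12 tested, against 27.3% and 25.5% of all tested plasmids. The G1 cyclins CLN1, CLN2 and CLN3 were all among those lower. CLN3, the cyclin that starts the G1 program, had 34.1, 29.9 and 35.8 normalized reads in YPS128 and 88.9, 94.7 and 92.0 in BC187 (-1.46 ± 0.13, adjusted p = 9.7e-05). CLN2 was at 67.2, 65.1 and 66.1 against 180.2, 163 and 156 (-1.33 ± 0.10). SIC1, the inhibitor of B-type cyclin kinase, was lower too (-1.42 ± 0.13), and so was FAR1, the inhibitor of G1 cyclins in the pheromone response. MIH1, the phosphatase that activates Cdc28, was higher, at 589, 388 and 426 against 142, 152 and 174 (1.58 ± 0.17). CDC28 itself was not called (0.09 ± 0.10, adjusted p = 0.46).

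Actin and tubulin plasmids were more often higher in oak, with 8 higher (40%) and 4 lower (20%) of 20 and a median of 0.12. Of all tested plasmids, 25.5% were higher and 27.3% lower. TUB2, beta-tubulin, had 405, 267 and 223 normalized reads in YPS128 and 66.0, 78.7 and 95.0 in BC187 (1.90 ± 0.24, adjusted p = 0.00043). YPS128 replicate 1 was the highest, and without it the difference was 1.61. Alpha-tubulin TUB1 was higher by 0.78 ± 0.18 and the myosin MYO2, which carries cargo into the bud, by 1.01 ± 0.20. MLC2, the regulatory light chain of type II myosin, was lower (6.20 against 33.3, means of 3, -2.44 ± 0.30). CIN1, a tubulin folding factor, was lower as well (-1.17 ± 0.14).

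Of 12 tested histone plasmids, 5 were higher (41.7%) and 2 lower (16.7%), against 25.5% and 27.3% of all tested plasmids. Both genes for histone H2A were the lower ones, HTA1 with 17.6, 14.1 and 16.7 normalized reads in YPS128 against 70.3, 79.5 and 84.1 in BC187 (-2.28 ± 0.15, adjusted p = 4.8e-05). In BY4743 and NCYC3290 HTA1 was at 73.1 and 79.1, near the BC187 level. HHF2 (histone H4), both rows of CSE4 (the centromeric histone), HHT1 (histone H3) and HHO1 (the linker histone) were higher by 0.24 to 0.82. Origin licensing factors had 4 lower and 3 higher of 12, with ORC3 at -1.16 and ORC1 at 1.07. Cohesin and kinetochore genes had 8 lower and 9 higher of 28.

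Among plasmids of salt and osmotic tolerance, 10 were higher in YPS128 (30.3%) and 6 lower (18.2%) of 33 tested, with a median of 0.06. Over all tested plasmids, 25.5% were higher and 27.3% lower. Yeast answers high osmolarity through the HOG pathway, which raises glycerol synthesis, and sodium through calcineurin and ion pumps. OPY2, a membrane anchor of the HOG pathway, was lower in YPS128, at 21.6, 20.6 and 18.8 normalized reads against 52.3, 57.1 and 52.2 in BC187 (-1.41 ± 0.14, adjusted p = 0.00016). FPS1, the glycerol channel, was lower as well, at 69.2, 64.6 and 55.1 against 154, 139 and 129 (-1.16 ± 0.13). GPP2, the glycerol-3-phosphatase, was among the most abundant YPS128 plasmids, at 1843, 1222 and 1220 against 625, 759 and 704 (1.04 ± 0.18), and HOT1, a transcription factor of the pathway, was at 439, 308 and 289.9 against 158, 139 and 139.5 (1.25 ± 0.16). The kinase HOG1 differed by 0.44 ± 0.07 and its activator PBS2 was not called (-0.24 ± 0.15, adjusted p = 0.22). SHO1, the osmosensor, was called higher on 5 to 30 reads a library, and its call was lost without BC187 replicate 1 or 2 or YPS128 replicate 1 or 3 (adjusted p 0.058 to 0.098).

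The study names 12 plasmids for their later course in salt, or they took a large share of the later cultures, and 5 of them were called at generation 0. Over all tested plasmids, 52.8% were called in either direction. HAL5, a kinase that stabilizes potassium transporters, was high in both pools, at 856, 761 and 813 normalized reads in BC187 and 759.6, 1270 and 827 in YPS128 (0.23 ± 0.19, adjusted p = 0.32). Only YPS128 replicate 2 stood above the BC187 range. SAT4, a related kinase, had 14.4, 21.1 and 91.3 in BC187 and 18.8, 18.3 and 21.1 in YPS128 (-1.13 ± 0.62, adjusted p = 0.16). This difference rested on BC187 replicate 3, and without it the log2 difference was 0.12. CMK2, a calmodulin-dependent kinase, and SIS2, an inhibitor of the Ppz1 phosphatase, were not called, at 0.06 ± 0.12 and -0.20 ± 0.11.

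CRZ1, the transcription factor that calcineurin activates, was lower in YPS128, at 199, 186 and 172 normalized reads in BC187 and 103, 63.2 and 74.2 in YPS128 (-1.21 ± 0.18, adjusted p = 0.00092). URA5, an orotate phosphoribosyltransferase of pyrimidine synthesis, was at 102, 106 and 107 against 53.4, 43.2 and 39.7 (-1.21 ± 0.14, adjusted p = 0.00032). Of 5 tested pyrimidine plasmids, 3 were lower and 0 higher, the others being URA4 (-1.27 ± 0.09) and URA6 (-0.58 ± 0.09). Over all tested plasmids, 27.3% were lower and 25.5% higher. ECM27, a calcium exchanger, differed by -0.45 ± 0.10 and CKA1, a casein kinase 2 subunit, by -0.52 ± 0.09, while DGK1, a diacylglycerol kinase, was higher by 0.33 ± 0.08. GCD10, a tRNA methyltransferase subunit, and the drug exporters QDR1 and QDR2 were not called, at -0.31, -0.42 and 0.45. QDR1 passed the threshold without YPS128 replicate 1 (-0.64, adjusted p = 0.00068) and QDR2 without BC187 replicate 3 (0.67, adjusted p = 0.018).

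**Figure D4:**
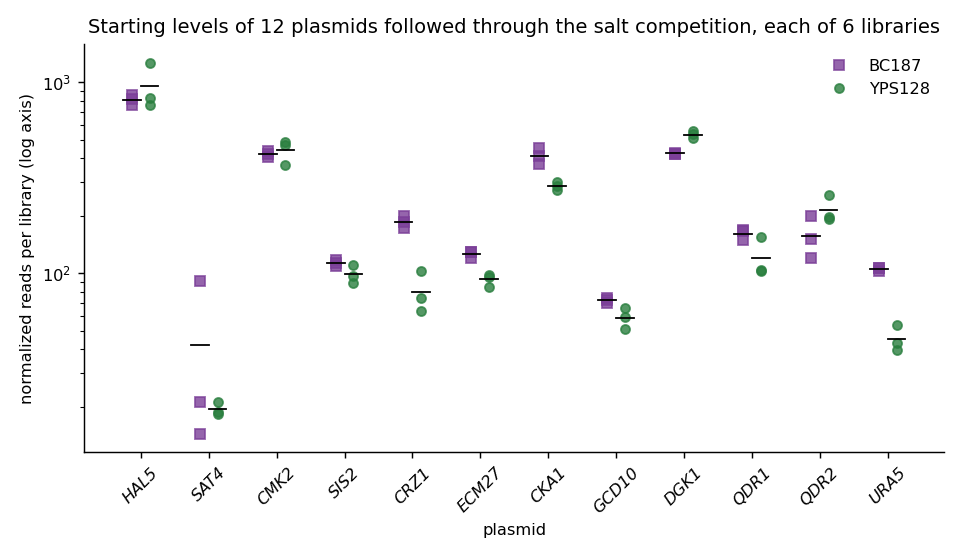
Normalized reads (log axis) of 12 plasmids at generation 0 in each of 3 BC187 libraries (squares) and 3 YPS128 libraries (circles), with strain means as black bars. CRZ1 and URA5 are clearly lower in YPS128, and the SAT4 mean in BC187 is set by 1 library at 91.3.

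In the Ras and protein kinase A pathway, which couples nutrients to growth, 4 of 9 tested plasmids were higher (44.4%) and 2 lower (22.2%). The shares over all tested plasmids were 25.5% and 27.3%. IRA1, a GTPase-activating protein that restrains Ras, had the largest difference, with 1.55, 12.2 and 17.6 normalized reads in YPS128 and 0.866, 1.75 and 2.73 in BC187 (2.52 ± 0.75, adjusted p = 0.023). Its strains overlapped, since YPS128 replicate 1 lay within the BC187 range. The call was lost when BC187 replicate 1 or 2 or YPS128 replicate 2 or 3 was left out (adjusted p 0.057 to 0.077), and without YPS128 replicate 1 the difference was 3.0. The phosphodiesterases that degrade cyclic AMP went opposite ways, PDE1 at -0.63 ± 0.08 and PDE2 at 0.74 ± 0.19. RAS1 was not called (-0.03 ± 0.18, adjusted p = 0.89).

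Ergosterol synthesis had 8 higher (38.1%) and 3 lower (14.3%) of 21 tested, against 25.5% and 27.3% of all tested plasmids. ERG9, squalene synthase, had 124, 133 and 124 normalized reads in YPS128 and 45.4, 50.9 and 51.6 in BC187 (1.36 ± 0.11, adjusted p = 8.2e-05), and ERG3, a sterol desaturase, was 2.83-fold higher (adjusted p = 0.0037). ERG28, the scaffold of the demethylation complex, was lower (-1.11 ± 0.20), at 6.21 and 13.4 in these strains against 289.7 in BY4743 and 301 in NCYC3290. Amino acid permeases were split at 4 lower and 4 higher of 11, with GAP1, the general permease, at -1.30 ± 0.12. The strains overlapped for MMP1, and its lower call was lost when BC187 replicate 2 or 3 or YPS128 replicate 2 or 3 was left out (adjusted p 0.053 to 0.14).

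The nuclear pore had 10 lower and 7 higher of 27, with the ring protein POM152 at 31.9, 39.6 and 39.1 normalized reads in YPS128 against 131, 127 and 137 in BC187 (-1.83 ± 0.13) and NDC1 at the other end. The proteasome had 8 lower and 4 higher of 27, with its ATPases RPT1 and RPT4 at -1.09 and 1.45. The lower shares were 37.0% for the nuclear pore and 29.6% for the proteasome, beside 27.3% over all tested plasmids. The higher shares were 25.9% and 14.8%, beside 25.5%. Cytosolic chaperones had 6 lower and 7 higher of 21, the cell wall integrity pathway 1 lower and 2 higher of 10, and sporulation genes 3 and 3 of 17, with SPO14, a phospholipase D, at 1.95 ± 0.23. Hexose and maltose genes gave 1 call in each direction among only 4 tested, HXT4 at -0.33 and MAL31 at 0.97. Both were lost when single libraries were left out.

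**Figure D5:**
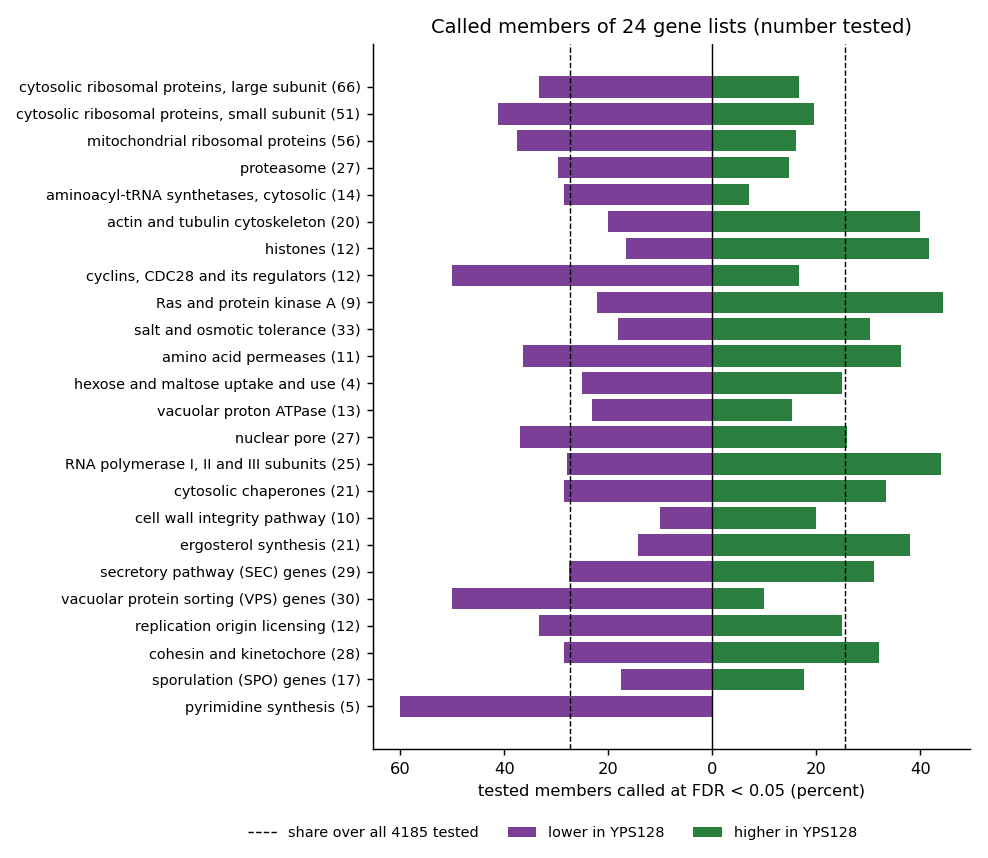
Percent of tested members of each of 24 gene lists called lower (bars to the left) or higher (bars to the right) in YPS128 at an adjusted p under 0.05, with the number tested in parentheses. Dashed lines mark the shares over all 4185 tested plasmids, 27.3% lower and 25.5% higher, and bars of lists with few members move in large steps.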

How the data were processed

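The deposited table held raw read counts per plasmid row, which the authors obtained by sequencing barcodes amplified from plasmid preparations of each culture. The tool that assigned reads to barcodes is not given in the sources used here. All 24 columns were matched to samples by title. Gene symbols and positions came from the RefSeq R64 annotation by systematic name (4811 of 4817 names matched), which also gave the coding sequences, aligned with Biopython 1.88.

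Counts of the 6 generation 0 libraries were tested with edgeR 4.0.16 (quasi-likelihood F test, filterByExpr with a minimum count of 10, Benjamini-Hochberg adjustment over 4185 rows, threshold 0.05). Libraries were scaled, after the study's methods, by their summed reads of plasmids staying at or below 50000 reads everywhere, with no further factors. A log2 difference is YPS128 minus BC187, and its SE is the difference divided by the square root of F. The tested rows included 3 in which only one strain reached 10 reads. On simulated counts of this comparison (4179 rows tested), the test called 34% of plasmids simulated with a log2 difference of 0.5, 100% of those with 1, 2 or 4, and 1 of 3979 without a difference. The simulation gave every plasmid the same relative spread between libraries (0.137), whereas real plasmids differ in spread. Its rates therefore need not hold for these libraries. Libraries of a strain differed by more than sampling noise (chi-square per degree of freedom 12.4 to 85.8), so each counts as 1 replicate. Alternatives were edgeR's TMM factors, DESeq2 1.42.0, other library sizes, filters and sample sets.

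The plasmids named are the largest non-overlapping differences with more than 3 reads in each library (10 each way), those at the floor in 1 strain, the 5 most abundant of each strain, the extreme called members of each list, 2-row genes and ribosomal pairs, and 12 plasmids of the study. MET31, CMI7 and the other 5 calls on few reads, ACB1, TAD3, DID4 and further list members were chosen after their values were seen. Of the plasmids that these rules name, 2 are not reported here. Plasmids and lists were chosen with earlier results of these data known. The read floor covers counting error only, whereas SEs include the spread between libraries.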

Additional observations from a re-analysis of the deposited data

How the results depend on the processing

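TMM factors, a library size of all reads, DESeq2, no low-count filter, a fit of the 12 generation 0 samples, the replicate block and each omission of a library kept the counts of calls within 1.5 times. A fit of all 24 samples, whose common spread includes the generation 10 cultures, called only 3 plasmids lower and 4 higher, all by more than 2-fold. Testing against a 2-fold difference (glmTreat) left 98 lower and 77 higher. Without 1 library, the plasmids lower numbered 882 to 1438 and those higher 796 to 1344, and by more than 2-fold 246 to 268 and 193 to 253. At the floor in YPS128 only were 0 plasmids with a floor of 0 reads and 2 to 4 without 1 library (4 without BC187 replicate 1), and in BC187 only 2 with a floor of 10 reads and 0 to 2 without 1 library (2 without BC187 replicate 3, 1 without YPS128 replicate 1 or 3). Same-numbered libraries of the 2 strains deviated with correlations of 0.01, -0.01 and 0.28, and differently numbered ones with -0.26 to 0.27. These few values cannot decide whether a replicate number marks a shared batch, which was not tested. The replicate block gave 1126 lower and 1015 higher, and of 108 named plasmids 7 lost and 2 gained a call. With TMM factors all 48 list counts stayed within 1.5 times. No named plasmid changed sign among those called. The median SE of a log2 difference was 0.17 in the lowest quartile of levels and 0.11 in the highest.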

Other observations

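Shares of called plasmids by chromosome are given as a description. Plasmids with genes of chromosome XVI had the highest share lower in YPS128 (33.9% of 310 tested), and those of chromosome I the lowest (20.3% of 64). Shares higher in YPS128 ran from 19.2% on chromosome V to 32% on chromosome III. Plasmids of genes with only a systematic name had 91 lower and 84 higher of 336, close to the shares over all plasmids.

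A few plasmids were high in a single library of a strain, a search made after the data were examined. In BC187, 9 tested plasmids with more than 50 reads in their highest library had over 3 times the normalized reads of the next library, and in all 9 the high library was replicate 3. In YPS128 there were 2, also in replicate 3. ATP25, which acts in mitochondrial ATP synthase assembly, had 1.15, 18.4 and 166 normalized reads in BC187 and 16.5, 10.5 and 79.7 in YPS128. SIF2, a subunit of the Set3 histone deacetylase complex, had 4.23, 14.2 and 86.1 in BC187 and 7.26, 6.61 and 43.6 in YPS128. The other plasmids in BC187 carried HER1, UBC7, PRP42, MLS1, SAT4, RKM4 and CAB2. In replicate 3 of BY4743 ATP25 was at 8.79, and in replicate 3 of NCYC3290 ATP25 was at 18.3 and SIF2 at 22.8.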
